A study of Mus musculus with 9 samples.

Results

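Cytosolic ribosomal proteins are the protein subunits of the ribosomes that translate nuclear-encoded mRNA, and their genes were followed here in mouse liver across a regular diet, a high-fat diet and a high-fat diet given with an extract of ginseng flower buds. Members were taken by name: every gene of the array annotation with its own probe set whose symbol begins with Rpl or Rps and a digit, or is Rplp0, Rplp1, Rplp2 or Rpsa, leaving out the Rps6k kinases and pseudogene symbols ending in -ps. The rule found 69 of the 22180 genes tested. Of the 77 subunits of the textbook ribosome with such names, 58 were present, 32 of the large subunit, 3 of its stalk and 23 of the small subunit. The other 11 members were paralogs and name-alikes (Rpl3l, Rpl7l1, Rpl10l, Rpl22l1, Rpl32l, Rpl39l, Rpl6l, Rps4l, Rps27l, Rps23rg1 and Rps19bp1). Rps19bp1 encodes a protein that binds a ribosomal protein and is not itself a subunit, so the label does not describe it. Whether the products of the others, such as Rps23rg1, are ribosomal proteins was not checked. The 19 absent subunits, among them Rpl13a and Rps27a, had no probe set that named them alone. Beyond the name, each gene's probe set was selected on 1 measured value, the highest mean over all 9 arrays, so signal level is given below as a description.

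The study gave C57BL/6 mice, 5 weeks old at the start, either vehicle or the extract by mouth once a day for 12 weeks, though the strain field has C56BL/6J. There were 3 arrays from mice on the regular diet, 3 from mice on the high-fat diet and 3 from mice on the high-fat diet with the extract at 500 mg/kg. Livers were taken after an overnight fast in every group, and the labels state no sex. The labels do not say that each array holds a separate mouse, so the p-values below measure only the spread between these samples, which may be technical.

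A ribosome is built from ribosomal RNA and one copy of nearly every ribosomal protein, so these genes are expressed in nearly all cells and their products are needed in matching amounts. Their mRNAs begin with a run of pyrimidines, the TOP motif, through which the mTOR pathway and the binding protein Larp1 set translation and stability according to nutrient supply. In the liver, fasting and refeeding are known to alter ribosome synthesis, and ribosomes are a large part of the cell's protein and RNA.

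The start-site sequences below show where a search for a TOP-like stretch gave a match and where it gave none. They come from genes that fell on the high-fat diet and from genes that did not pass the test. RefSeq promoter windows of build GRCm38.p6 matched 54 of the 69 members. The search took CTTTC or CTTCC on the coding strand within 20 bases on each side of the annotated start. One of these was found in 24 of 54 members (44.4%), against 15.8% of all genes with a window. It was found in 4 of the 11 matched members that fell on the high-fat diet and in 16 of the 34 matched subunits that did not pass the test. CCGGAAG, the core bound by ETS-family factors, was searched on both strands of the whole 300-base window and was present in 23 of 54 members (42.6%) against 9.93% of all genes. Read on the other strand it begins with CTTCC, so the 2 searches can mark the same bases. AAGATGGC, the core of the YY1 motif, was present in 3 of 54 members and 3.19% of all genes, and TATAAA in 6 of 54 members and 15.7% of all genes. A match describes letters in a window and is not a measured binding site. Each printed sequence runs 5′ to 3′ from 40 bases before the start to 20 bases after it, and capitals mark CTTTC or CTTCC inside the searched stretch. Rpl35, Rpl38, Rpl4 and Rps24 fell and hold a match in the searched stretch. Rpl28 and Rpl15 hold one but did not pass the test. Rps3a1 and Rps25 fell without a match there. The printed sequence of Rps25 does hold CTTCC in a pyrimidine run, in lower case because it begins just before the searched stretch. The windows lie at chr2:39005112-39005171 on the minus strand for Rpl35, chr11:114668540-114668599 on the plus strand for Rpl38, chr9:64173347-64173406 on the plus strand for Rpl4 and chr14:24490638-24490697 on the plus strand for Rps24. The others lie at chr3:86142649-86142708 on the minus strand for Rps3a1, chr9:44407674-44407733 on the plus strand for Rps25, chr7:4792925-4792984 on the plus strand for Rpl28 and chr14:18270967-18271026 on the minus strand for Rpl15.
Rpl35: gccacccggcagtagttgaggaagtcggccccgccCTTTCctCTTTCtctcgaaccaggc
Rpl38: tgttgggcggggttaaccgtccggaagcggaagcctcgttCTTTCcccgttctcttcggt
Rpl4: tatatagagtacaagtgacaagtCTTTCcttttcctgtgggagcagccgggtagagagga
Rps24: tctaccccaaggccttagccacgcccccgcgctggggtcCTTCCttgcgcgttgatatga
Rps3a1: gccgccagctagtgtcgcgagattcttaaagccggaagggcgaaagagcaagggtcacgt
Rps25: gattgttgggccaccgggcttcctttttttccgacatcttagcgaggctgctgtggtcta
Rpl28: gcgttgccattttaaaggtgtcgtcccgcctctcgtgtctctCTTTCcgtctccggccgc
Rpl15: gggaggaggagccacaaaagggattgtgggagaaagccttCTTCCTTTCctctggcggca

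All values are log2 signals per probe set as the authors normalized them, so a difference of 1 is a doubling of signal and levels of different genes cannot be set against each other. Array medians ran from 4.34 to 4.38, and the mean of a typical gene, the median over all genes, was 4.74. Means of the members over the 9 arrays ran from 2.28 to 11.66. There were 52 members above that median gene mean and 17 at or below it, where a signal may be close to background. The dim members included known subunits such as Rpl11, Rpl30, Rps15 and Rplp2, and no detection calls were used. For 49 of the 69 members RefSeq lists at least 1 pseudogene named after the gene, and near-identical copies can share hybridisation signal, so the assignment of signal to a single gene is uncertain.

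On the high-fat diet 13 members fell against the regular diet and none rose, while 0.518% of all genes tested fell and 0.821% rose. These 13 were 18.8% of the members. A gene was called when its adjusted p from limma, after Benjamini-Hochberg adjustment over all 22180 genes, was under 0.05. The falls ran from 0.36 to 0.57 on the log2 scale, so none reached 1.5-fold. Of all 69 members, 54 (78.3%) had a lower mean on the high-fat diet, against 49.9% of all genes, and the median difference was −0.20 against 0.00. All 3 high-fat arrays lay below all 3 regular-diet arrays for 32 members (46.4%), where the same held for 7.86% of all genes. The opposite order held for 3 members and 7.93% of all genes. In whole liver, fewer cells of a type and less RNA per cell cannot be told apart. Leaving out replicate 2 of the regular diet reduced the falls to 1, and leaving out its replicate 3 to 4. Without its replicate 1 more falls were kept than without any other array. Leaving out high-fat replicates 1, 2 and 3 in turn left 4, 5 and 2 falls, leaving out extract replicates 1, 2 and 3 left 6, 7 and 7, and a fit of only the 6 arrays of the 2 diets gave 0. The median stayed between −0.23 and −0.16 as each array was left out. Shares of all genes called in these smaller fits are not given here. The counts therefore do not show whether the loss of calls was particular to the members.

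**Figure D1:**
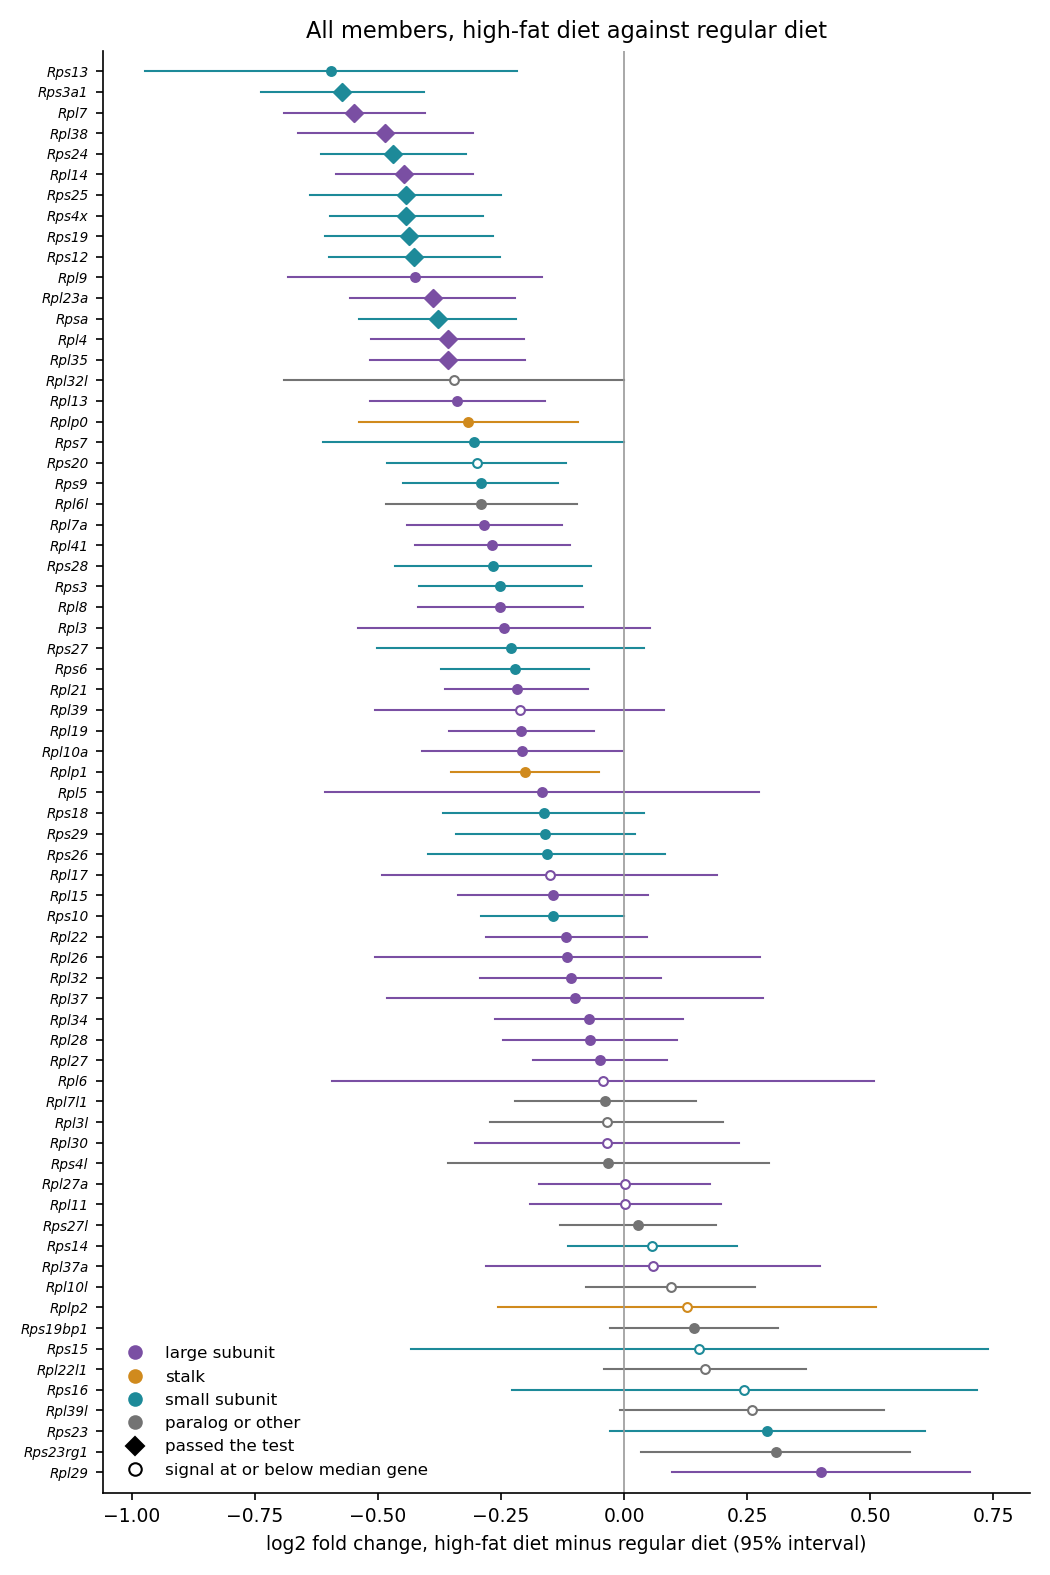
Log2 fold change of each of the 69 members, high-fat diet minus regular diet (x axis), with its 95% confidence interval, from 3 arrays a group. Colours give the subunit class, diamonds the 13 members that passed the test, and open circles the 17 members at or below the median gene mean. All diamonds lie left of 0, and 54 of the 69 points do.

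The members were also counted by signal level, with no test between the levels. Of the 52 members above the median gene mean, 47 were lower on the high-fat diet, with a median difference of −0.24, and all 13 falls were among them. Of the 31 members with a mean of 8 or more, 30 were lower and the median was −0.28. Among all 1920 genes with a mean of 8 or more, 964 were lower and the median was 0.00. Of the 17 dim members 7 were lower, with a median of 0.00. The 58 textbook subunits had 49 lower values and a median of −0.22, and the 11 paralogs and name-alikes had 5 lower values and a median of 0.03. Spearman's rho between mean level and difference across the 69 members was −0.51, where all points share the same 9 arrays and the same normalization. The standard error of a difference was smaller for bright members, with a median of 0.08, than for dim ones, with a median of 0.12.

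Small-subunit genes gave 7 of the 13 falls among 23 measured, with 19 lower means and a median of −0.27. Rps3a1, whose protein sits near the mRNA exit side of the small subunit and contacts initiation factor complexes, read 8.48, 8.65 and 8.57 on the regular diet, 8.0, 7.93 and 8.05 on the high-fat diet and 8.17, 8.25 and 8.28 with the extract. Every high-fat array was below every regular-diet array, and the extract arrays lay between them. Rps3a1 fell by 0.57 ± 0.07 (SE) on the log2 scale, a change of −32.8% (limma adjusted p = 0.0131). Rps24, a subunit needed to mature the small-subunit RNA, read 8.04, 8.13 and 8.06 on the regular diet, 7.55, 7.67 and 7.60 on the high-fat diet and 7.78, 7.81 and 7.79 with the extract. It fell by 0.47 ± 0.07 (limma adjusted p = 0.0145), with no overlap among the 3 groups. Rps4x, the X-linked copy of a core small-subunit protein, read 9.45, 9.43 and 9.50 on the regular diet, 8.94, 9.01 and 9.10 on the high-fat diet and 9.20, 9.13 and 9.20 with the extract. Its groups did not overlap either, and it fell by 0.44 ± 0.07 (limma adjusted p = 0.0205).

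Rps19, which is required for small-subunit assembly and is the gene most often mutated in Diamond-Blackfan anaemia, read 8.62, 8.56 and 8.61 on the regular diet, 8.17, 8.12 and 8.19 on the high-fat diet and 8.24, 8.39 and 8.16 with the extract. Rps19 fell by 0.44 ± 0.08 (limma adjusted p = 0.031). Its extract arrays spread from 8.16 to 8.39, and the lowest lay within the high-fat range. Rps12 read 9.77, 9.86 and 9.84 on the regular diet, 9.32, 9.53 and 9.35 on the high-fat diet and 9.46, 9.53 and 9.42 with the extract, and it fell by 0.43 ± 0.08 (limma adjusted p = 0.0354). High-fat and extract arrays of Rps12 overlapped, both below the regular diet. Rps25, known for its part in initiation at internal ribosome entry sites, read 8.41, 8.57 and 8.54 on the regular diet, 8.02, 7.99 and 8.17 on the high-fat diet and 8.04, 8.15 and 7.94 with the extract. It fell by 0.44 ± 0.09 (limma adjusted p = 0.0442) and was the only one of the 13 whose extract mean was not above its high-fat mean. Rpsa, also called the laminin receptor and needed for small-subunit RNA processing, read 9.65, 9.68 and 9.76 on the regular diet, 9.31, 9.34 and 9.30 on the high-fat diet and 9.37, 9.51 and 9.52 with the extract. Rpsa fell by 0.38 ± 0.07 (limma adjusted p = 0.0394), and its high-fat arrays lay close together below both other groups.

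Large-subunit genes gave the other 6 falls among 32 measured, with 28 lower means and a median of −0.19. Rpl7 read 8.92, 8.91 and 9.01 on the regular diet, 8.41, 8.37 and 8.42 on the high-fat diet and 8.66, 8.70 and 8.69 with the extract. The 3 groups formed separate bands, with the high-fat arrays lowest. Rpl7 fell by 0.55 ± 0.06, a change of −31.6%, and had the smallest adjusted p of all members (limma adjusted p = 0.00886). Rpl14 read 9.19, 9.16 and 9.22 on the regular diet, 8.70, 8.74 and 8.78 on the high-fat diet and 8.85, 8.88 and 8.85 with the extract. It fell by 0.45 ± 0.06 (limma adjusted p = 0.0145) and again showed 3 separate bands. Rpl38, whose loss in mice disturbs skeletal patterning through translation of Hox mRNAs, read 10.12, 10.16 and 10.17 on the regular diet, 9.63, 9.60 and 9.77 on the high-fat diet and 9.63, 9.82 and 9.80 with the extract. Rpl38 fell by 0.48 ± 0.08 (limma adjusted p = 0.0248), and its extract arrays overlapped the high-fat ones.

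The remaining 3 falls of the large subunit belong to proteins in or around the tunnel through which the new peptide leaves. Rpl4, which reaches into the tunnel wall, read 11.21, 11.21 and 11.30 on the regular diet, 10.89, 10.85 and 10.90 on the high-fat diet and 10.97, 11.12 and 11.06 with the extract and fell by 0.36 ± 0.07 (limma adjusted p = 0.0438). Rpl23a, at the tunnel mouth where the signal recognition particle docks, read 8.93, 9.07 and 9.07 on the regular diet, 8.55, 8.70 and 8.66 on the high-fat diet and 8.81, 8.73 and 8.81 with the extract and fell by 0.39 ± 0.07 (limma adjusted p = 0.042). Rpl35, its neighbour at the mouth, read 9.68, 9.73 and 9.77 on the regular diet, 9.34, 9.37 and 9.40 on the high-fat diet and 9.47, 9.37 and 9.54 with the extract. For Rpl4 and Rpl23a the high-fat arrays were below both other groups, and for Rpl35 one extract array lay within the high-fat range. Rpl35 fell by 0.36 ± 0.07 (limma adjusted p = 0.0449), the call nearest to the threshold, and the next member past it was Rpl13 at −0.34 ± 0.08 (limma adjusted p = 0.0806). The list of tunnel proteins had 7 measured members, of which these 3 fell and all 7 were lower. Among all 32 large-subunit members, 6 (18.8%) fell and 28 (87.5%) were lower. Of the 7, 5 were above the median gene mean and 4 (57.1%) had every high-fat array below the regular diet. That order of arrays held for 43.8% of the large-subunit members and 7.86% of all genes. A difference between tunnel proteins and the rest was not tested. A moderated F test over the 3 groups called 6 members, Rps3a1, Rpl7, Rpl38, Rps24, Rpl14 and Rps4x, and 0.78% of all genes.

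**Figure D2:**
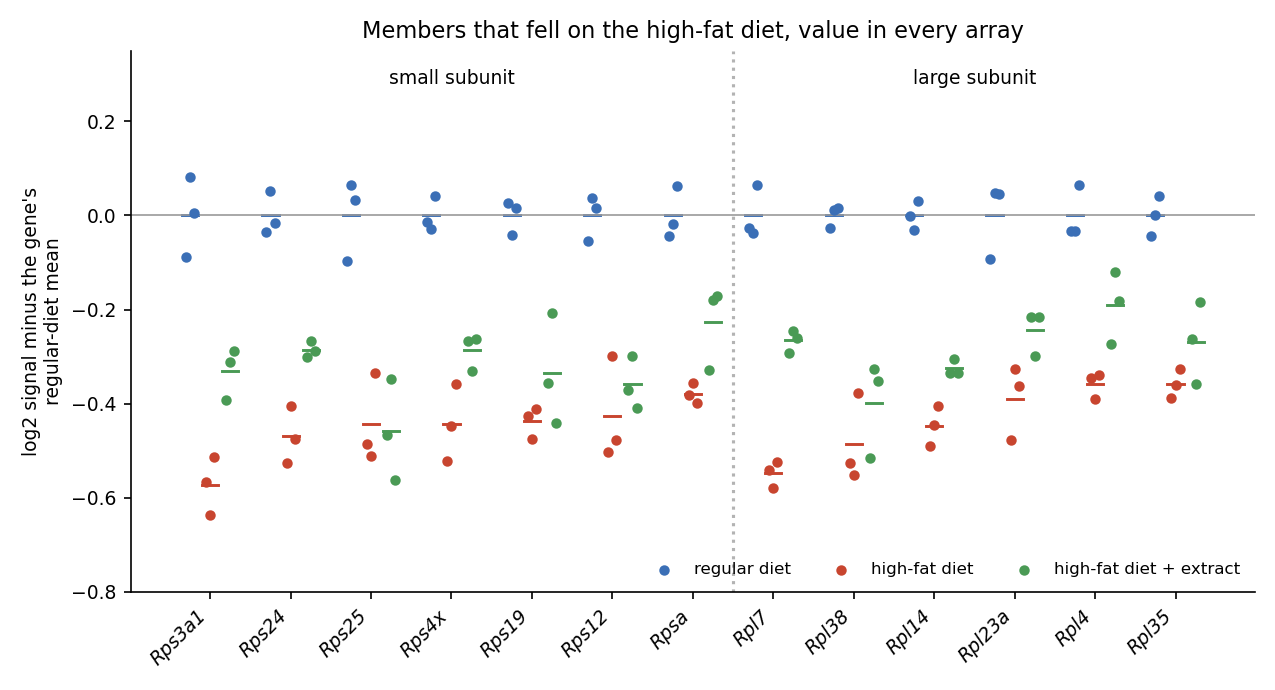
Log2 signal of the 13 members that fell on the high-fat diet, as the difference from each gene's regular-diet mean (y axis), with 1 point per array and a bar at each group's mean of 3 arrays. All high-fat arrays lie below all regular-diet arrays of the same gene, and the extract means lie between both diets except for Rps25.

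Other members with all high-fat arrays below the regular diet did not pass the test. Rps13 read 6.28, 6.31 and 6.89 on the regular diet, 6.01, 5.67 and 6.01 on the high-fat diet and 6.00, 6.24 and 6.04 with the extract. Its difference of −0.60 ± 0.17 was the largest of all members, but regular-diet replicate 3 stood well above its group (limma adjusted p = 0.146). Rpl9 had a difference of −0.43 ± 0.11 (limma adjusted p = 0.13), and its high-fat arrays were all below the regular-diet arrays. Rps9 and Rpl7a gave −0.29 ± 0.07 and −0.28 ± 0.07 (limma adjusted p = 0.0887 and 0.0968). Rps6, the substrate of the S6 kinases, whose phosphorylation is a usual readout of mTOR signalling, read 11.40, 11.35 and 11.37 on the regular diet, 11.15, 11.23 and 11.08 on the high-fat diet and 11.26, 11.31 and 11.26 with the extract. Its 3 groups did not overlap, and the high-fat diet differed by −0.22 ± 0.07 (limma adjusted p = 0.171). Rpl21, in whose probe set the mean was 11.66, gave −0.22 ± 0.06 (limma adjusted p = 0.162).

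The stalk proteins recruit and activate translation factors on the large subunit, and none of the 3 passed the test. Rplp0, the stalk base and a common reference gene in qPCR, read 7.44, 7.63 and 7.59 on the regular diet, 7.20, 7.29 and 7.23 on the high-fat diet and 7.02, 7.17 and 7.38 with the extract. Both high-fat groups lay below the regular diet, with differences of −0.32 ± 0.10 without the extract (limma adjusted p = 0.187) and −0.36 ± 0.10 with it (limma adjusted p = 0.188). Rplp1 gave −0.20 ± 0.07 (limma adjusted p = 0.216) with no overlap between the diets. Rplp2, dim on this array, gave 0.13 ± 0.17 with overlapping arrays.

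The members with opposite signs did not pass the test either. Rpl29, a heparin-binding protein of the large subunit, read 9.99, 10.06 and 10.38 on the regular diet, 10.63, 10.70 and 10.30 on the high-fat diet and 10.51, 10.72 and 10.68 with the extract. High-fat and regular-diet arrays overlapped through high-fat replicate 3, and the difference was 0.40 ± 0.13 (limma adjusted p = 0.223). The second probe set of Rpl29 gave −0.02. Rps23rg1, a retroposed gene derived from Rps23, gave 0.31 ± 0.12 with every high-fat array above the regular diet (limma adjusted p = 0.311). Rps23 itself gave 0.29 ± 0.14, with arrays that overlapped, and Rps16, a dim member, 0.24 ± 0.21. Among the paralogs, Rpl39l gave 0.26 ± 0.12, Rpl22l1 0.16 ± 0.09 and Rpl10l 0.09 ± 0.08, all at or below the median gene mean. Rpl3l, the paralog of striated muscle, gave −0.04 ± 0.11 and was also dim. Rps27l and Rpl7l1, which were brighter, gave 0.03 ± 0.07 and −0.04 ± 0.08, Rps4l gave −0.03 ± 0.14, and Rps19bp1 gave 0.14 ± 0.08. Rpl6l (−0.29 ± 0.09) and Rpl32l (−0.35 ± 0.15) were lower, and Rpl32l was dim. No paralog or name-alike passed the test, with limma adjusted p values from 0.164 upward.

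A list of genes mutated in Diamond-Blackfan anaemia held 7 members, of which Rps19 and Rps24 (28.6%) fell and 6 (85.7%) were lower. This list is not complete, so the counts do not cover every member tied to the disease. Among the 58 textbook subunits 22.4% fell and 84.5% were lower, and among all genes 0.518% and 49.9%. A difference between the list and the other subunits was not tested. Rpl5 and Rpl11, which carry a ribosomal RNA and bind Mdm2 when assembly is disturbed, gave −0.17 ± 0.20 and 0.00 ± 0.09 with overlapping arrays. Rps3, at the mRNA entry channel, gave −0.25 ± 0.07 (limma adjusted p = 0.156), with every high-fat array below the regular diet.

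Members with more than 1 probe set gave further readings under the same symbol, which may not come from the same transcript. In all, 110 probe sets named the 69 members alone, 44 members had 1 and 25 had several, of which 24 had several with distinct values. Among the 73 distinct probe sets above the median gene mean, 67 were lower on the high-fat diet, with a median of −0.25. They include the brightest probe sets already counted above. Among all genes above that mean, 50.8% were lower. For Rpsa, Rpl4, Rps12 and Rps3a1 the dimmest probe set gave differences of −0.44, −0.40, −0.41 and −0.43, in the direction of the brightest. Rps19, whose second probe set had a mean of 5.03, above the median gene mean, gave −0.06 there against −0.44. For Rpl7, Rps24 and Rpl35 the dimmest probe set had the opposite sign, with differences of 0.15, 0.06 and 0.28, and its mean over the arrays was 4.54, 4.48 and 3.69, below the median gene mean. The middle probe set of Rps24 gave −0.35 and that of Rpl35 −0.16. For Rps28 the 2 probe sets gave −0.27 and 0.46, at mean levels of 8.72 and 3.49. In all, the brightest and dimmest probe sets differed in sign for 8 of the 24 members, the others being Rpl27, Rpl29, Rpl41 and Rps18. With the lowest-mean probe set of each gene in place of the brightest, 6 members fell and the median was −0.10.

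**Figure D3:**
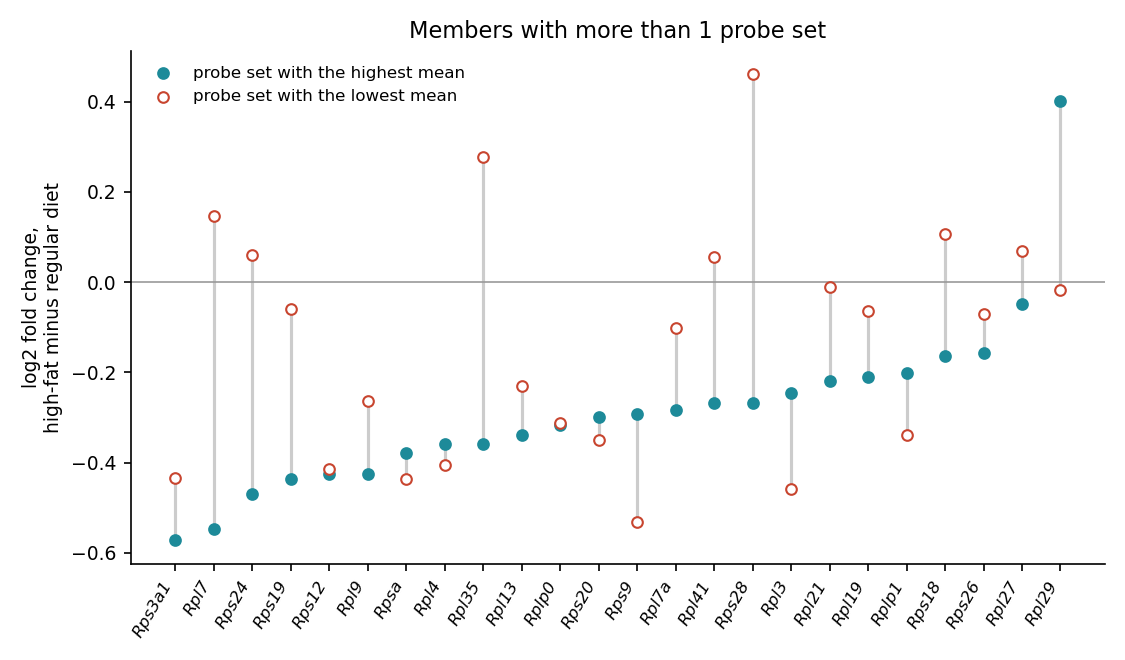
Log2 fold change, high-fat minus regular diet (y axis), of the brightest (filled) and the dimmest (open) probe set of each of the 24 members with several distinct probe sets (x axis), from 3 arrays a group. Pairs such as Rpsa, Rpl4, Rplp0 and Rps12 lie close together, while Rpl7, Rpl35 and Rps28 lie on opposite sides of 0.

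Probe sets that name a textbook subunit together with other symbols lie outside the rule and were fitted beside it. There were 57 of them, naming 32 subunits, 12 of which had no probe set of their own. On the high-fat diet 7 of the 57 fell and none rose, against 0.568% falling among all probe sets with a symbol. Of the 57, 49 (86.0%) were lower, against 50.3% of all probe sets with a symbol, and their median was −0.27. These probe sets cannot be given to a single gene.

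Viewed array by array, the shared level of the members differed by group. The median deviation of the 69 members from their own 9-array means was 0.08, 0.10 and 0.16 in the regular-diet arrays, −0.10, −0.06 and −0.11 in the high-fat arrays and −0.03, 0.00 and −0.01 in the extract arrays. The 3 groups did not overlap. The same median over all genes was 0.00 in every array, in values already normalized by quantiles, a step that removes a shift shared by most genes. Regular-diet replicate 3 held the highest value of 28 members and high-fat replicate 3 the lowest value of 18. Without regular-diet replicate 3 the median difference between the diets was −0.16. The group means were ordered regular diet, extract, high-fat diet in 35 members (50.7%), against 18.2% of all genes.

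**Figure D4:**
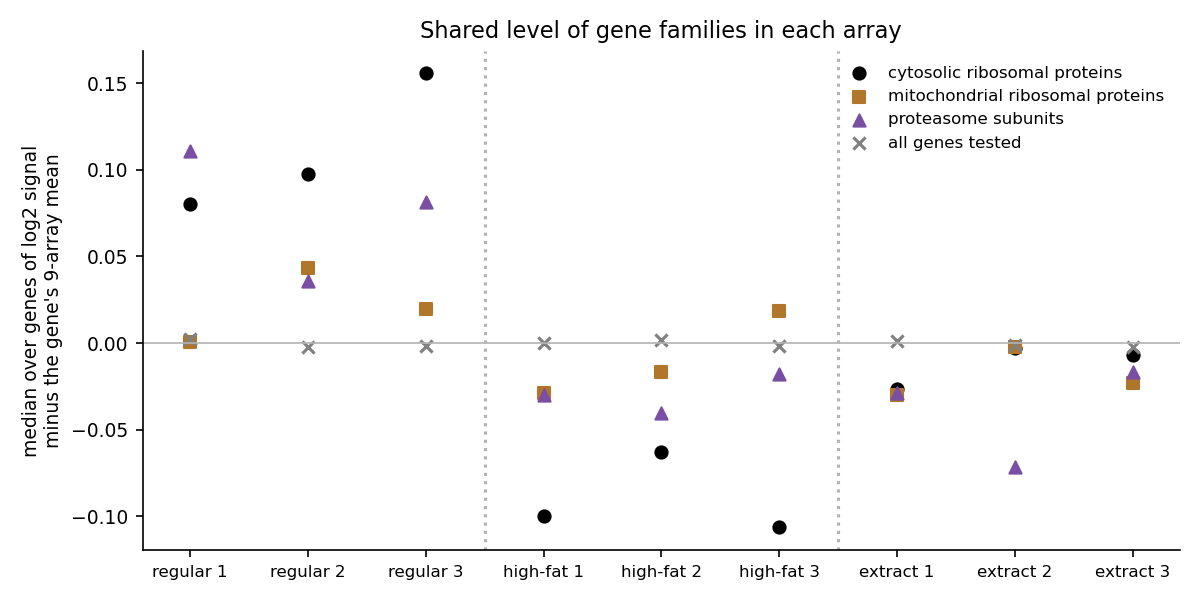
Median over genes of the log2 signal minus each gene's mean over the 9 arrays (y axis), for each array (x axis), in cytosolic ribosomal proteins, mitochondrial ribosomal proteins, proteasome subunits and all genes tested. The cytosolic ribosomal proteins sit between 0.08 and 0.16 on the regular diet and between −0.11 and −0.06 on the high-fat diet. All genes stay at 0.00, in values already normalized by quantiles.

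The comparison of the extract with the high-fat diet alone asks whether the extract altered the family on the same diet. No member passed the test in limma, where 0.00451% of all genes tested rose and 0.0% fell. At an unadjusted p under 0.05, 8 members were higher and 2 lower, against 2.58% and 3.40% of all genes. Of the 69 members 47 were higher with the extract and the median difference was 0.09, against 49.4% higher and a median of 0.00 among all genes. All 3 extract arrays lay above all 3 high-fat arrays for 17 members (24.6%), where this held for 4.42% of all genes, and below them for 2 members and 5.27% of all genes. Rpl7, with the values given above, was 0.28 ± 0.06 higher with the extract, with a 95% confidence interval of 0.14 to 0.43 (limma adjusted p = 0.489, the smallest of all members). Rps3a1 was 0.24 ± 0.07 higher, with an interval of 0.08 to 0.41 (limma adjusted p = 0.702). Rps26 read 9.16, 9.33 and 9.23 on the regular diet, 9.19, 9.16 and 8.90 on the high-fat diet and 9.18, 9.45 and 9.42 with the extract, a difference of 0.27 ± 0.11 (limma adjusted p = 0.802), and one extract array lay within the high-fat range. The 2 members with every extract array below the high-fat arrays were Rps16 (−0.53 ± 0.21) and Rpl37a (−0.36 ± 0.15), both at or below the median gene mean.

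For the 13 members that fell on the high-fat diet, the differences between extract and high-fat diet ran from −0.01 to 0.28, and 12 of them had an extract mean between the other 2 group means. Both comparisons use the high-fat arrays, so this order is a description and not a second result. The stalk genes gave −0.05 ± 0.10 for Rplp0, 0.00 ± 0.07 for Rplp1 and −0.21 ± 0.17 for Rplp2 between extract and high-fat diet. Their second, dimmer probe sets were higher with the extract, by 0.22 ± 0.09 for Rplp0 and 0.34 ± 0.12 for Rplp1, and did not pass the test (limma adjusted p = 0.832 and 0.801). A missing call does not show that the extract left the family as it was, since the interval for Rpl14, for example, was −0.02 to 0.26.

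Against the regular diet, the extract group also had no member past the test in limma, where 0.18% of all genes tested fell and 0.261% rose. At an unadjusted p under 0.05, 26 members were lower and 2 higher, against 6.26% and 5.79% of all genes. Of the 69 members 51 (73.9%) were lower than on the regular diet, against 49.6% of all genes, and the median was −0.12 against 0.00. All 3 extract arrays lay below the regular diet for 32 members, against 7.62% of all genes, and above it for 2 members, against 7.0%. Rps25 came closest to the threshold, at −0.46 ± 0.09 (limma adjusted p = 0.0696). Rpl14 gave −0.32 ± 0.06 and Rpl38 −0.40 ± 0.08 (limma adjusted p = 0.074 and 0.0855). Rps7 read 5.27, 5.51 and 5.21 on the regular diet, 5.06, 4.96 and 5.05 on the high-fat diet and 4.64, 5.17 and 4.78 with the extract. Its difference of −0.47 ± 0.14 was the largest below the regular diet among the members, with a wide spread among the extract arrays (limma adjusted p = 0.213). Rps13 gave −0.40 ± 0.17. The 2 members with every extract array above the regular diet were Rpl29 (0.50 ± 0.13, limma adjusted p = 0.186) and Rps23rg1 (0.34 ± 0.12). When genes below the median gene mean were left out of the fit, 5 members fell, and without regular-diet replicate 1 there was 1. Shares of all genes called in these fits are not given here, so the gain in calls may not be particular to the members.

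**Figure D5:**
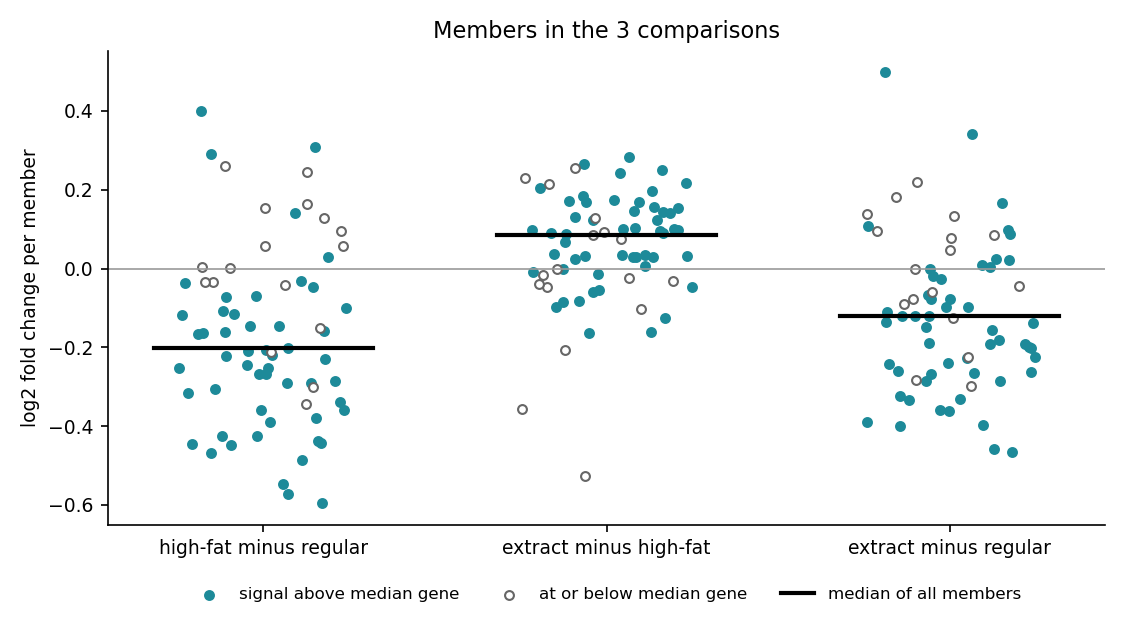
Log2 fold change of each of the 69 members (y axis) in the 3 comparisons (x axis), with the median as a bar, filled points above and open points at or below the median gene mean. The medians are −0.20, 0.09 and −0.12, and neighbouring comparisons share arrays.

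Genes that work with the ribosome were counted in the same way. Other mRNAs that begin with a TOP motif, mostly translation factors, had 15 of 16 lower means on the high-fat diet. Their median was −0.16, but none passed the test. Every high-fat array was below the regular diet for 7 of the 16 (43.8%), against 7.86% of all genes. Tpt1, one of the classic TOP mRNAs, gave −0.46 ± 0.10 (limma adjusted p = 0.0732), Eef1d −0.26 ± 0.07, and the bright elongation factor gene Eef1a1 −0.05 ± 0.06. Fau, which encodes a small-subunit protein fused to a ubiquitin-like part and carries no Rp symbol, gave −0.28 ± 0.08 (limma adjusted p = 0.145). Of 51 genes of ribosome assembly and ribosomal RNA synthesis 34 were lower, none passed the test and the median was −0.06. Sbds, which helps release an assembly factor from the large subunit, had the smallest adjusted p of that list, at −0.28 ± 0.07 (limma adjusted p = 0.101). Of 18 genes of mTOR signalling and ribosomal protein transcription, Mlst8, an mTOR complex subunit, rose by 0.61 ± 0.10 (limma adjusted p = 0.0200) and 17 did not pass the test, among them Mtor (0.17 ± 0.09) and Larp1 (−0.13 ± 0.08).

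Families of similar kind were counted by symbol for comparison, without a test of the difference between families. Of 71 mitochondrial ribosomal protein genes 48 were lower on the high-fat diet, 1 (1.41%) fell, Mrpl15, and the median was −0.06. Of 39 proteasome subunits 31 were lower, 2 (5.13%) fell, Psmb4 and Psmd9, and the median was −0.14. Among all genes 0.518% fell. All 3 high-fat arrays lay below the regular diet for 18 of the 39 (46.2%), beside 46.4% of the ribosomal protein genes and 7.86% of all genes. Of 12 common reference genes, Actb rose by 0.59 ± 0.11 (limma adjusted p = 0.0412) and the others did not pass the test. Gapdh gave 0.18 ± 0.09.

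Cell type markers were read in the same arrays. The 9 measured hepatocyte markers had a mean signal per array of 11.36 to 11.37 on the regular diet. It was 11.20 to 11.30 on the high-fat diet and 11.34 to 11.38 with the extract. On the high-fat diet 5 of the 9 were higher and 4 lower. Only Cps1, a urea cycle enzyme, passed the test there, with a fall of 0.66 ± 0.10 (limma adjusted p = 0.0224). All 8 genes of the stellate cell list were above the median gene mean. The list lay at 6.57 to 6.75, 6.87 to 6.96 and 6.73 to 6.80 in that order of groups. On the high-fat diet 5 of the 8 were higher and 3 lower. The collagen genes Col1a1 and Col3a1 rose by 0.85 ± 0.12 and 1.14 ± 0.14 on it (limma adjusted p = 0.0152 and 0.0115). The endothelial list lay at 7.42 to 7.56, 7.23 to 7.46 and 7.43 to 7.68, with 6 of 8 lower on the high-fat diet. The Kupffer cell list overlapped among the groups. Of the lymphocyte markers 9 of 11, and of the neutrophil markers 6 of 7, were at or below the median gene mean, among them Cd3e, Ms4a1 and S100a8. The part of cell composition in the ribosomal protein values was not tested.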

How the data were processed

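Total RNA from mouse liver, 9 samples in all, was labelled with biotin and hybridised to a whole-transcript GeneChip. The deposited values are log2 signals per probe set, which the authors made by RMA with oligo, per the submitters' processing notes (versions not stated). RMA corrects background, normalizes arrays by quantiles and summarises probes, so a shift shared by most genes would be removed. No source used here names the genome build of the probe sets. Of 41345 probe sets 23521 had 1 gene symbol, 1814 had several and 16010 none, and the brightest single-symbol probe set stood for each of 22180 genes. Group means were fitted to all 9 arrays in limma 3.58.1 (R 4.3.3) with empirical Bayes moderation (6 residual and 3.28 prior degrees of freedom), two-sided, with Benjamini-Hochberg adjustment over all genes and a threshold of 0.05. The steps were tested on simulated data. All 69 member symbols matched RefSeq by gene ID. Named genes were those called, those with the largest differences of either sign in each comparison, stalk and reference members, the brightest and dimmest members, paralogs, members of the role lists, members whose probe sets differ, and called or leading genes of the other lists. Members and lists were chosen with earlier results of these data known. Alternatives covered moderation, dim genes, probe set choice, normalization, array weights, replicate block, thresholds and leaving out each array. Array data give no depth, and 3 arrays a group limit the precision.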

Additional observations from a re-analysis of the deposited data

How the results depend on the processing

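The main setting gave 13 falls on the high-fat diet and a median of −0.20. With the probe sets of a gene averaged, 8 members fell and the median was −0.15, and with the lowest-mean one 6 fell and the median was −0.10. With a fold of at least 1.5 required, or with only the 6 arrays compared, 0 fell, the latter in a fit with fewer samples. As each array was left out the count ran from 1 to 10 and the median from −0.23 to −0.16. Rpl7 passed in all 9 of these fits, Rps3a1 in 8, Rpl14 and Rps24 in 7, and Rpl4 and Rpl35 in 0. With the replicate number as a block 6 members fell, and this block changed no other count of members. Correlations of same-numbered deviations ran from −0.05 to 0.17. No label says that a number pairs arrays, and with 3 arrays a group these values cannot decide it. With the lowest-mean probe set the sign turned, among the genes recomputed under every setting, for Rpl35 (0.28), Rpl7 (0.15), Rps24 (0.060) and Rpl29 (−0.018) between the diets, and for Rpl7 (−0.062) and Rps26 (−0.11) between extract and high-fat diet. Among all 24 members with several distinct probe sets it turned for 8 between the diets, 10 between extract and high-fat diet (Rplp0 and Rplp1 among them) and 9 between extract and regular diet. That setting also gave medians of 0.035 for extract against high-fat diet and −0.078 for extract against regular diet. For the latter comparison 2 members fell with trended, robust moderation, 5 with genes above the median gene mean only, 3 at an adjusted p under 0.10, and 0 to 1 as each array was left out. Its median was −0.17 with genes above the median gene mean only, with textbook subunits only, and with members above the median gene mean, the last chosen after seeing the data. The cause of these shifts was not tested. Shares of all genes called are not given for these settings, so the counts do not show whether a change was particular to the members. Of the settings for these single genes 586 kept direction and side of the threshold, 115 lost the call, 9 gained it and 6 changed sign. Signal near background limits the 17 dim members.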
